A study of Mus musculus with 9 samples.

Results

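The 10 genes described here are markers of macrophages that were followed in RNA sequencing of mouse embryonic fibroblasts (MEFs) and of the cells made from them. They were taken by name as C1qa, C1qb, C1qc, Lyz2, Tyrobp, Csf1r, Cd68, Fcer1g, Laptm5 and Cd14, and all 10 were found among the 13787 genes listed in the deposited table and among the 12443 genes that were tested. In the MEFs, which carry the label of a fibroblast culture, 9 of the 10 genes lay above their level in every library of the derived cells, as did 24.4% of all genes tested, and Lyz2 exceeded 95.1% of the genes tested. This count is a description. The genes were chosen with earlier results of these data known, and 8 of the 10 entered the test only through their MEF values and so had to be lower in the derived cells.

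The study turned MEFs into chemically induced extraembryonic endoderm-like (ciXEN) cells with small molecules and bFGF, and compared the transcriptomes of both. Each of the 3 groups had 3 libraries. The MEFs came from embryos of the CF-1 strain, had no chemical treatment, were at passage 3 and grew in DMEM with serum. The ciXEN cells, also CF-1, were sequenced at passage 5 and at passage 30, as lines 1-1, 2-1 and 3-3 at both passages. They were grown from clones picked by hand after induction with VPA, RepSox, CHIR99021, forskolin, Parnate, EPZ004777, AM580 and bFGF on Matrigel, and their long-term medium was KnockOut DMEM with the same additions at lower amounts of some. Cell type, medium, chemicals, clonal picking and passage therefore changed together between MEFs and ciXEN cells, and their parts cannot be told apart. The labels do not say whether the MEF libraries came from separate embryos, so a p-value measures only the spread between these samples.

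Macrophages are phagocytes that arise in the embryo from the yolk sac and the fetal liver and settle in most tissues, where they clear dying cells. They depend on signals through the receptor that Csf1r encodes, and their gene programme is set largely by the transcription factor PU.1, the product of Spi1. The genes described here cover several of their tools: the 3 chains of C1q (C1qa, C1qb, C1qc), the recognition molecule of the classical complement pathway; lysozyme (Lyz2), which cuts bacterial cell walls; the signalling adaptors Tyrobp (DAP12) and Fcer1g; the growth factor receptor Csf1r; the late endosomal and lysosomal membrane proteins Cd68 and Laptm5; and Cd14, a co-receptor for bacterial lipopolysaccharide.

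The labels of the groups were checked first. All 12 fibroblast markers listed fell in ciXEN cells, with a summed level of 3522 to 3966 FPKM in the MEF libraries and 19.3 to 44.7 FPKM in the ciXEN libraries. Of 10 markers of extraembryonic endoderm, 8 were higher in ciXEN cells. Over all genes tested, 27.6% were called lower and 42.4% higher. The filter on low values fixed the direction for part of both lists. Of the fibroblast markers, 5 passed it only through the MEFs. Some endoderm markers, Sox17 and Sox7 among them, passed it only through ciXEN cells. FPKM, a fragment count divided by transcript length and by the mapped total of the library, is the unit of the deposited table, and the values of a library summed to between 315395 and 342201. The sources used here give no depth, so no counting interval can be had. The 10 macrophage markers together came to 193, 112 and 145 FPKM in MEF libraries 1, 2 and 3, and to between 2.87 and 8.46 FPKM in the 6 ciXEN libraries. In bulk RNA, fewer cells of a type and less RNA per cell cannot be told apart.

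The regions upstream of the genes are shown for members whose windows hold a match to a macrophage-related motif, and for Lyz2, the most abundant member. RefSeq windows on GRCm38.p6 were matched for 6 members, C1qb, C1qc, Cd68, Fcer1g, Laptm5 and Lyz2, while C1qa, Tyrobp, Csf1r and Cd14 had none in the table. Each sequence is the 250 bases before the start that RefSeq gives the gene, 5′ to 3′ on its strand. The gene coordinates given further on are the outer bounds in GENCODE, which differ from RefSeq: 191 bases of the Laptm5 window, 151 of the C1qc window and 49 of the Lyz2 window lie inside those bounds, and none of the C1qb and Cd68 windows. Distances below are from the RefSeq start. Capitals mark GAGGAA, the purine-rich core that PU.1 binds, and TGAGTCA, the motif of AP-1. A copy of the first on the opposite strand reads TTCCTC. The windows are chr4:136886201-136886450 (minus strand) for C1qb, chr4:136892915-136893164 (minus) for C1qc, chr11:69666171-69666420 (minus) for Cd68, chr4:130913066-130913315 (plus) for Laptm5 and chr10:117282273-117282522 (minus) for Lyz2.
C1qb: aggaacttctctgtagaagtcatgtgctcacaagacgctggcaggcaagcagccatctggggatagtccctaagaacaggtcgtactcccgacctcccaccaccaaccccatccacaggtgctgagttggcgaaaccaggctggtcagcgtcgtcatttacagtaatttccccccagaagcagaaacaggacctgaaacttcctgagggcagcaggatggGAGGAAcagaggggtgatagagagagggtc
C1qc: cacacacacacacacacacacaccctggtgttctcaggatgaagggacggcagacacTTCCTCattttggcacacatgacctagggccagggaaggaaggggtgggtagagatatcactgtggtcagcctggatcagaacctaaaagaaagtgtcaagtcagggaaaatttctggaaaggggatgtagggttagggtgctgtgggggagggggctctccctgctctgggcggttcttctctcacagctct
Cd68: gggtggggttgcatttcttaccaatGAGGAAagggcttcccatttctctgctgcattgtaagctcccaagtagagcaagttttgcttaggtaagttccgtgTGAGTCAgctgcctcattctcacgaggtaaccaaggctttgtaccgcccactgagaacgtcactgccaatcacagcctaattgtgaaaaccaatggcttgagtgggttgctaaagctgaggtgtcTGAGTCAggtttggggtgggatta
Laptm5: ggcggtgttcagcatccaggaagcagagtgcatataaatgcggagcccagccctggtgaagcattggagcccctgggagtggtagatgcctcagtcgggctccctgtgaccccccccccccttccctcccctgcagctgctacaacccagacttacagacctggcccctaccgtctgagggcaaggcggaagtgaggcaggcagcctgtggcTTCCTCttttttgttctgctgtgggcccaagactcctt
Lyz2: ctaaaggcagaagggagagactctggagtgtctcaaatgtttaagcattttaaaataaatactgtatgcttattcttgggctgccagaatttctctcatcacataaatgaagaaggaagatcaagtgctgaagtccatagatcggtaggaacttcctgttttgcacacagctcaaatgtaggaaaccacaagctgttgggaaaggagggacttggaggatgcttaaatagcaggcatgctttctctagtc

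GAGGAA occurred in 4 of the 6 windows, against 23.3% of all 32851 windows of the same length searched on both strands. In C1qb it lay 30 to 25 bases before the start, and in Laptm5 38 to 33 bases before it on the opposite strand. The copy of C1qc lay 193 to 188 bases upstream on the opposite strand and was part of the longer GAGGAAGT, which 2.44% of all windows hold, and that of Cd68 lay 225 to 220 bases upstream. TGAGTCA was found in the Cd68 window, at 149 to 143 and at 24 to 18 bases before the start, and in 4.46% of all windows. TATAAA was in the Laptm5 window only and in 12.4% of all windows. Of the other motifs searched, TTGCGCAA (0.164% of all windows), TTTGCATA (1.18%), TTGCAAAT (0.706%) and CACGTG (6.02%) had no match in the 6 windows. A match of letters is a description and does not show a bound site.

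C1qa, C1qb and C1qc encode the 3 chains that assemble into C1q, which in tissues is made mainly by macrophages. They lie side by side on the minus strand of chromosome 4 within 18675 bases of GRCm38 (C1qb at chr4:136880129-136886187, C1qc at chr4:136889804-136893065 and C1qa at chr4:136895917-136898803), and each had 1 listed transcript. In MEF libraries 1, 2 and 3, C1qa was at 8.29, 7.97 and 5.38 FPKM. C1qb was at 9.34, 7.47 and 5.64 FPKM, and C1qc at 9.46, 7.24 and 6.61 FPKM. All 3 genes were highest in MEF library 1 and lowest in library 3, and all were listed at 0 in each of the 6 ciXEN libraries, so the groups did not overlap. The chains kept near equal levels in the MEFs: C1qa over C1qb was 0.888, 1.07 and 0.954 in the 3 libraries, and C1qc over C1qb was 1.01, 0.970 and 1.17.

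The difference between ciXEN cells and MEFs in mean log2(FPKM + 1) was −3.02 (SE 0.14) for C1qa, −3.06 (SE 0.14) for C1qb and −3.12 (SE 0.13) for C1qc. Adjusted p values in limma were 9.3e-08, 1.0e-07 and 3.9e-08. All 3 genes passed the filter on low values only through the MEFs and so had to be lower, and these p-values are not support for a difference. Because 1 was added before the logarithm and the genes were listed at 0, these differences describe the MEF level on that scale and are no fold changes. Being listed at 0 in all 6 ciXEN libraries was true of 4 of the 10 members, the C1q genes and Fcer1g, and of 0.956% of the genes tested. Such a gene can be tested only through the MEFs. That route was taken by 8 of the 10 members but by only 875 of the 12443 genes tested, so the 2 shares are not alike and their contrast is no support. No gene was at 0 in 1 library while at 5 FPKM or more in all the others, so a 0 in one library alone was not seen for well expressed genes.

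Lyz2, the lysozyme of macrophages and other myeloid cells, lies at chr10:117277331-117282321 (minus strand). It was at 120.7, 61.0 and 94.9 FPKM in MEF libraries 1, 2 and 3, at 0.347, 0.227 and 0.114 FPKM in lines 1-1, 2-1 and 3-3 at passage 5, and at 0.127, 0.138 and 0.135 FPKM in the same lines at passage 30. The lowest MEF library stood far above the highest ciXEN library. The MEF mean of 92.2 ± 29.9 FPKM (SD, n = 3) was 509 times the ciXEN mean of 0.181 ± 0.0906 FPKM (SD, n = 6 libraries, which are 3 lines at both passages). It exceeded the MEF mean of 95.1% of the genes tested. Lyz2 made up 62.5%, 54.2% and 65.5% of the summed FPKM of the 10 genes in the MEF libraries, which leaves 72.5, 51.5 and 50.1 FPKM for the other 9. On the log2(FPKM + 1) scale the difference was −6.25 (SE 0.19, limma adjusted p = 7.1e-09). Since Lyz2 passed the filter only through the MEFs, it had to be lower in ciXEN cells. Lyz1, its near-identical neighbour in the mouse genome, was not among the genes listed and so was not analysed here, and reads shared by the pair could have been counted on Lyz2.

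**Figure D1:**
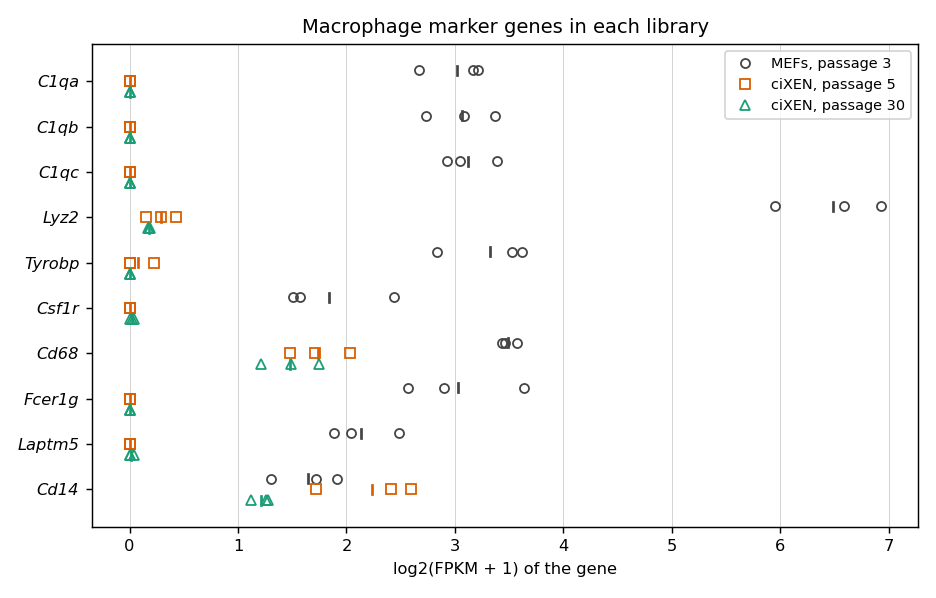
Level of each macrophage marker gene in each of the 9 libraries, as log2(FPKM + 1) on a linear axis; each open symbol is 1 library and each short bar a group mean. For 9 genes the 3 MEF libraries lie above all 6 ciXEN libraries, and for Cd14 the groups overlap, with passage 30 lowest.

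Tyrobp encodes DAP12, a membrane adaptor that carries the signal of receptors such as TREM2, and Fcer1g encodes the common gamma chain of the Fc receptors. Tyrobp (chr7:30413760-30417585, plus strand) was at 11.3, 6.13 and 10.5 FPKM in MEF libraries 1, 2 and 3, at 0.168 FPKM in line 3-3 at passage 5, and listed at 0 in the other 5 ciXEN libraries. The MEF libraries were all above the ciXEN libraries, and library 2 was the lowest of the 3. Fcer1g (chr1:171229572-171234365, minus strand) reached 11.4, 6.47 and 4.91 FPKM in the MEFs and was listed at 0 in all 6 ciXEN libraries. Library 1 was again the highest, but here library 3 was the lowest, so that Tyrobp over Fcer1g was 0.989 and 0.947 in libraries 1 and 2 and 2.15 in library 3. The differences on the log2(FPKM + 1) scale were −3.29 (SE 0.18, limma adjusted p = 2.6e-07) for Tyrobp and −3.03 (SE 0.21, adjusted p = 1.2e-06) for Fcer1g. Both genes passed the filter only through the MEFs and so had to be lower.

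Of the 2 listed transcripts of Tyrobp, the first, Tyrobp-201, carried 94.6% and 96.2% of the gene's FPKM in MEF libraries 1 and 3. In library 2 it carried 53.3%, with 3.27 FPKM against 2.86 FPKM for Tyrobp-202. As assigned, library 2 was thus set apart by the split between the 2 transcripts as well as by the lower sum. How reads were shared between the 2 transcripts is an estimate of the authors' software, and the split was not tested. The trace of Tyrobp in line 3-3 was all assigned to Tyrobp-202.

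Csf1r encodes the receptor for the growth factors CSF1 and IL-34. It lies at chr18:61100598-61132149 (plus strand), and its end overlaps Hmgxb3 on the opposite strand. Csf1r was at 4.42, 1.85 and 1.97 FPKM in MEF libraries 1, 2 and 3, listed at 0 in all 3 lines at passage 5 and in line 1-1 at passage 30, and at 0.0192 and 0.0283 FPKM in lines 2-1 and 3-3 at passage 30. Library 1 had 2.39 times the value of library 2, the largest such ratio of the 10 genes, and the groups did not overlap. The difference was −1.83 (SE 0.20, limma adjusted p = 2.8e-05), and Csf1r, which passed the filter only through the MEFs, had to be lower.

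The ligand Csf1 was far more abundant than its receptor in the MEFs, at 71.1, 47.9 and 77.4 FPKM, which per length is 16.1, 25.9 and 39.3 times Csf1r in the same libraries. In ciXEN cells Csf1 lay between 2.34 and 4.40 FPKM, a difference of −4.06 (limma adjusted p = 1.2e-07), and all 6 libraries were below the MEFs. The second ligand, Il34, averaged 0.0211 FPKM in the MEFs, was listed at 0 in ciXEN cells and was not tested. Among the 3 tested genes of the 10 in the list of colony-stimulating factors and receptors, Csf1 and the cytokine Flt3l (−0.63, adjusted p = 0.023) fell and Csf2ra, a subunit of the receptor for GM-CSF, rose from 4.75 ± 0.699 FPKM (SD, n = 3) to a mean of 7.59 FPKM (0.55, adjusted p = 0.018).

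Cd68 and Laptm5 encode membrane proteins of late endosomes and lysosomes, Cd68 in phagocytes and Laptm5 in blood cells. Cd68 (chr11:69664213-69666153, minus strand) was at 10.9, 9.79 and 10.04 FPKM in MEF libraries 1, 2 and 3, at 3.09, 1.80 and 2.27 FPKM in lines 1-1, 2-1 and 3-3 at passage 5, and at 2.35, 1.81 and 1.32 FPKM at passage 30. It was the steadiest of the 10 genes between the MEF libraries, with a coefficient of variation of 5.80%, against 52.8% for Csf1r. It was present in every ciXEN library, as Lyz2 was at a far smaller share, with a ciXEN mean at 20.5% of the MEF mean, and the groups did not overlap. The difference was −1.88 (SE 0.16, limma adjusted p = 5.5e-06).

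Most of the Cd68 signal in the MEFs, 93.3% to 100% of it, was assigned to the transcript Cd68-201. In ciXEN libraries Cd68-201 carried 44.7% to 76.4%, and Cd68-202 was at 0.464 to 1.71 FPKM, against 0.311, 0 and 0.673 FPKM in the MEFs. The fall of the gene therefore lay in Cd68-201, which went from between 9.37 and 10.6 FPKM to between 0.854 and 1.74 FPKM. How reads were shared between the 2 transcripts is an estimate of the authors' software, and the difference between transcripts was not tested.

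Laptm5 (chr4:130913125-130936141, plus strand) had 4.59, 3.11 and 2.70 FPKM in MEF libraries 1, 2 and 3, at 0.0323 FPKM in line 1-1 at passage 30 and 0 in the other 5 ciXEN libraries. MEF library 1 was the highest and the groups did not overlap. The difference was −2.13 (SE 0.14, limma adjusted p = 1.1e-06), and Laptm5, which passed the filter only through the MEFs, had to be lower.

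Cd14, which hands lipopolysaccharide to the receptor complex of TLR4, was the exception. Cd14 (chr18:36725067-36726798, minus strand) was at 2.77, 1.48 and 2.29 FPKM in MEF libraries 1, 2 and 3, at 5.03, 2.29 and 4.32 FPKM in lines 1-1, 2-1 and 3-3 at passage 5, and at 1.17, 1.42 and 1.39 FPKM at passage 30. Passage 5 overlapped the MEFs through line 2-1, while every passage 30 library lay below every MEF and every passage 5 library. Over both passages the ciXEN mean was 119% of the MEF mean, and the difference of 0.08 (SE 0.21, 95% interval −0.39 to 0.56, limma adjusted p = 0.75) did not pass the test. A p that misses the threshold does not show that the levels were equal. Cd14 was 0.59 higher than in MEFs at passage 5 (95% interval 0.04 to 1.14, adjusted p = 0.055) and −0.43 at passage 30 (95% interval −0.98 to 0.12, adjusted p = 0.15).

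From passage 5 to passage 30, Cd14 fell by 1.02 on the log2(FPKM + 1) scale (SE 0.24, limma adjusted p = 0.034) and was lower in 3 of 3 lines. It was the only member called between the passages, where 5.61% of the genes tested were called lower and 3.08% higher. With the line as a block in a fit of the 6 ciXEN libraries alone the difference of −1.02 had an adjusted p of 0.17, and leaving out any 1 of 6 libraries, MEF library 3 among them, also ended the call, with adjusted p of up to 0.12. For Cd68 the change was −0.26 (95% interval −0.68 to 0.16, adjusted p = 0.44) and for Lyz2 −0.11 (95% interval −0.62 to 0.39, adjusted p = 0.82). The other 7 genes were at or near 0 at both passages.

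Across the comparisons with MEFs, 9 of 10 members were called lower over both passages (27.6% of all genes tested were called lower and 42.4% higher), 9 of 10 at passage 5 (25.8%) and 9 of 10 at passage 30 (26.6%). These comparisons share the 3 MEF libraries. For the same 9 genes all ciXEN libraries lay below all MEF libraries, which held for 24.4% of the genes tested. Of the 10 genes, 8 passed the filter on low values only through the MEFs and so had to differ, all but Cd68 and Cd14. Neither their count nor their p-values are support for a difference of the group. The median difference of the 10 was −3.03, beside 0.20 over all genes tested.

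At passage 5 against MEFs the differences were −6.19 for Lyz2 and −1.75 for Cd68, and at passage 30 −6.31 and −2.01. For Csf1r they were −1.84 and −1.82, and for Laptm5 −2.14 and −2.12. The plot of differences shows the passage 5 and passage 30 estimates side by side for each gene.

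**Figure D2:**
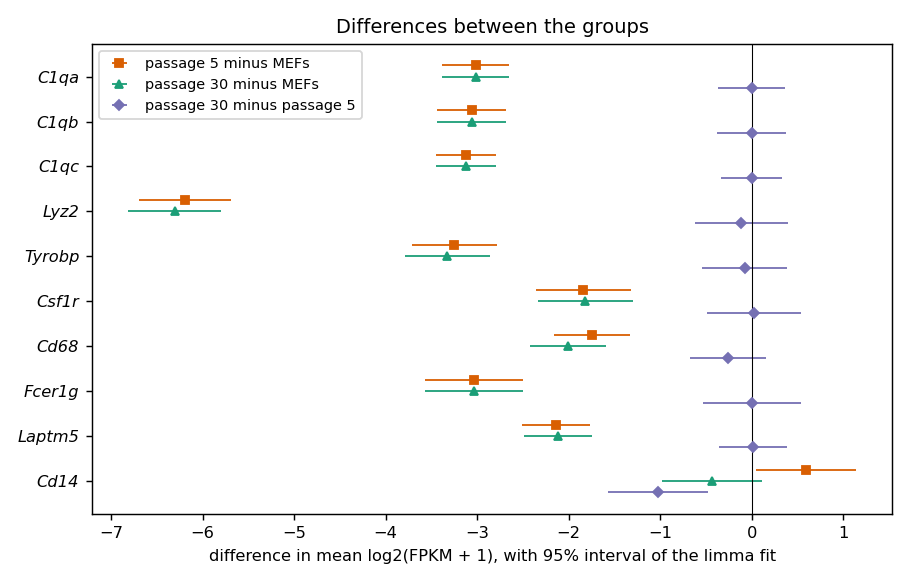
Difference in mean log2(FPKM + 1) for each gene, passage 5 minus MEFs, passage 30 minus MEFs and passage 30 minus passage 5; points are limma estimates and lines their 95% intervals. For 9 genes both differences from MEFs lie below 0, from −1.75 for Cd68 to −6.31 for Lyz2, and Cd14 is the only gene whose interval between the passages excludes 0.

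In the MEFs the levels per length ran, from high to low, Lyz2 (92.2 FPKM), Cd68 (10.3), Tyrobp (9.31), C1qc (7.77), Fcer1g (7.60), C1qb (7.48), C1qa (7.21), Laptm5 (3.47), Csf1r (2.74) and Cd14 (2.18). Lyz2 and Cd68 did not overlap, and neither did C1qa and Laptm5. All other neighbours in this order overlapped in their ranges over the 3 libraries. Apart from Lyz2 the genes lay in the middle and lower range, from above 20.3% of the tested genes for Cd14 to above 55.5% for Cd68.

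All 10 genes were highest in MEF library 1, as were 37.4% of all genes tested. The lowest value fell in library 2 for 5 genes (Lyz2, Tyrobp, Csf1r, Cd68 and Cd14) and in library 3 for the other 5. The ratio of library 1 to library 2 ran from 1.04 for C1qa to 2.39 for Csf1r, with a median of 1.62, beside 1.03 over all genes tested. Of 15 tested genes in a second list of macrophage markers, 12 were highest in library 1 (median ratio 1.45), and of 15 pan-leukocyte genes, 13 were (median ratio 1.87). Of 12 fibroblast markers, 2 were highest there (median ratio 0.86), and their sum was lowest in library 1. The libraries of 1 group give no test of this order.

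**Figure D3:**
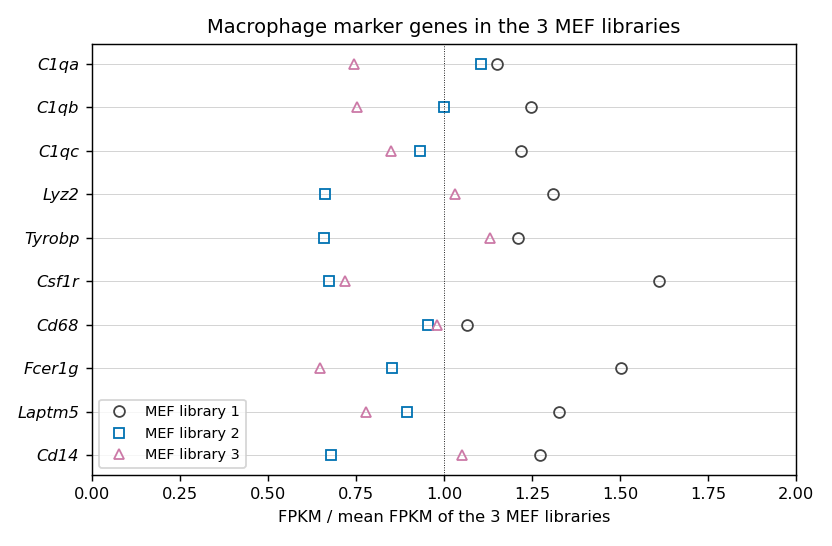
FPKM of each macrophage marker gene in each MEF library, divided by the mean of the 3 MEF libraries; each symbol is 1 library and the dotted line marks the mean. Library 1 is the highest for all 10 genes, and libraries 2 and 3 are each the lowest for 5.

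A second list of 39 macrophage markers held 29 listed genes, of which 15 were tested and 14 fell in ciXEN cells (median −1.82). Of the 15, 13 passed the filter only through the MEFs and so had to be lower. Over all genes tested, 27.6% were called lower and 42.4% higher, shares to be read beside the counts of this and the following lists. Ctss, a lysosomal protease used in antigen processing, was the most abundant, at 24.2, 12.03 and 14.4 FPKM in MEF libraries 1, 2 and 3 and at most 0.110 FPKM in ciXEN cells (−4.08, limma adjusted p = 1.0e-07). The scavenger receptor Msr1 (5.11 ± 0.870 FPKM in MEFs, SD, n = 3), the mannose receptor Mrc1 (4.87 ± 0.798) and C3ar1, the receptor for the complement fragment C3a (3.29 ± 0.791), fell with differences of −2.60, −2.53 and −2.07. The summed level of the list was 58.2 to 89.9 FPKM in MEFs and 2.62 to 5.47 FPKM in ciXEN cells, and 16 of its genes were listed at 0 in all 6 ciXEN libraries.

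Some genes of that list were singled out after their values were seen. Adgre1, the gene of the macrophage antigen F4/80, was at 1.51, 1.44 and 1.28 FPKM in the MEFs, listed at 0 in ciXEN cells and below the filter. Spi1, which encodes PU.1, was at 1.92, 1.11 and 1.15 FPKM in MEFs and between 0 and 0.262 FPKM in ciXEN cells (−1.15, limma adjusted p = 7.5e-05). Spi1 passed the filter only through the MEFs and so had to be lower. Itgam and Ms4a7 were uneven between the MEF libraries, Itgam at 3.78, 2.35 and 0.854 FPKM and Ms4a7 at 2.99, 2.25 and 0 FPKM. Mertk, a receptor for the uptake of dying cells, was the tested gene that did not pass, at 3.02 FPKM in MEFs and 2.77 FPKM in ciXEN cells (−0.13, adjusted p = 0.64).

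A further list held receptors and signalling genes around Tyrobp and Fcer1g, not all of them direct partners of either, with Fcgr2b and Sirpa among the exceptions. Of its 28 genes, 10 were tested, 6 fell and 2 rose, and 5 of the 10 passed the filter only through the MEFs. The Fc receptors Fcgr2b (4.92 ± 0.927 FPKM in MEFs, SD, n = 3; −2.54) and Fcgr3 (3.45 ± 0.261; −1.66) and the inhibitory receptor Sirpa (13.7 ± 1.97; −2.41) fell. Blnk, an adaptor of B-cell receptor signalling, passed the filter only through ciXEN cells and so had to be higher. It rose from a mean of 0.204 FPKM to between 0.704 and 60.6 FPKM (3.75, limma adjusted p = 0.00013), and the kinase Lyn rose from 2.88 to 9.17 FPKM (1.41, adjusted p = 3.3e-05). Blnk was also lower at passage 30 than at passage 5 (−3.12, adjusted p = 0.015).

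Of the 28 genes of the pan-leukocyte list, 22 were listed and 15 tested, and 11 fell and 3 rose, with a median of −1.34. Ptprc was among the genes not listed and so was not analysed here. Since 10 of the 15 passed the filter only through the MEFs and so had to be lower in ciXEN cells, this count is a description. Arhgdib, a regulator of small GTPases that is abundant in blood cells, went from 45.3 ± 7.02 FPKM (SD, n = 3) to 2.43 FPKM (−3.83), and Cd52, a surface glycoprotein of leukocytes, from 5.10 ± 2.87 FPKM to 0 in every library (−2.46). Against the rest of the list, Gmfg rose from 1.03 to 15.8 FPKM (3.06, limma adjusted p = 7.8e-07) and the transcription factor Ikzf1 from 0.411 to 5.93 FPKM (2.25, adjusted p = 7.9e-06). Ikzf1 passed the filter only through ciXEN cells and so had to be higher.

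The genes of lipopolysaccharide recognition that work with Cd14 were split, with 15 of 23 tested, 2 of them through the MEFs alone, 7 lower and 6 higher (median −0.02). Tlr4, the signalling receptor, passed the filter only through the MEFs and so had to be lower. It was at 2.03 ± 0.199 FPKM in MEFs (SD, n = 3) and at most 0.0827 FPKM in ciXEN cells (−1.57, limma adjusted p = 1.2e-06). Its partner Ly96 (MD-2) fell from 4.30 to 0.896 FPKM (−1.55, adjusted p = 0.00050). Tlr2 rose from 1.42 ± 0.537 to 9.04 FPKM (2.02, adjusted p = 6.4e-05). Lbp, the binding protein that loads Cd14, was at 2.74, 0.852 and 5.40 FPKM in MEF libraries 1, 2 and 3, at 19.5, 15.6 and 18.9 FPKM in the lines at passage 5, and at 6.66, 3.54 and 5.39 FPKM at passage 30. It was called higher over both passages (1.60, adjusted p = 0.0021), but passage 30 overlapped the MEFs, and Lbp fell between the passages (−1.64, adjusted p = 0.034). The kinase Irak1, the most abundant of the list in MEFs, fell from 16.4 to 10.1 FPKM (−0.68, adjusted p = 0.0015).

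Of complement genes other than C1q, 14 of 23 were tested, 6 of them through the MEFs alone, and 9 were lower and 2 higher (median −0.74). Lrp1, an endocytic receptor that binds C1q, fell from 83.4 ± 7 FPKM (SD, n = 3) to 0.623 FPKM (−5.70, limma adjusted p = 3.7e-10). The proteases Masp1 (15.9 ± 1.63 FPKM in MEFs; −4.07) and C1ra (8.20 ± 2.45; −3.10) also fell. Serping1, the inhibitor of C1r and C1s, rose from 6.12 to 31.4 FPKM (2.07, adjusted p = 0.00058) and C1qbp, a mitochondrial protein that can bind C1q, from 88.9 to 180 FPKM (1.01, adjusted p = 9.6e-07). Calr, a chaperone that binds C1q at the cell surface and the most abundant of the list, went from 683 to 510 FPKM (−0.42, adjusted p = 0.00072).

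The wider family of proteins with a C1q domain was listed with 14 of 25 genes, of which 12 were tested, 10 fell and 1 rose (median −2.31). Of the 12, 7 passed the filter only through the MEFs, so that their fall was set by the filter. The members that moved most are known as matrix and other secreted proteins. Col8a1, a collagen chain, fell from 129 ± 20.3 FPKM (SD, n = 3) to 0.157 FPKM (−6.80), Emilin1 from 54.0 ± 4.28 to 0.127 FPKM (−5.61), the adipokine C1qtnf3 from 28.4 ± 14.0 to 0.0299 FPKM (−4.71) and Col8a2 from 18.8 ± 8.24 to 0.0394 FPKM (−4.15). Caprin2, an RNA-binding protein, rose from 3.00 to 7.07 FPKM (1.01, limma adjusted p = 4.2e-05).

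Of the phagocyte NADPH oxidase, 4 of 7 genes were tested, 2 through the MEFs alone, and 3 fell: Cyba (32.1 ± 3.53 FPKM in MEFs, SD, n = 3; −3.22), Ncf1 (2.09 ± 1.24; −1.55) and Cybb, the catalytic subunit (1.94 ± 1.03; −1.50). Rac1, which all cells use, was at 81.3 FPKM in MEFs and 72.7 FPKM in ciXEN cells and did not pass (adjusted p = 0.79). The single tested gene of MHC class II presentation, H2-DMa, tested through the MEFs alone, fell from 3.36 to 0.472 FPKM (−1.56). Lysosomal membrane proteins other than Cd68 and Laptm5 were split, with 3 of 8 lower, 3 higher and a median of −0.04. The relatives of Laptm5 went opposite ways: Laptm4a fell from 290 ± 12 to 119 FPKM (−1.28), and Laptm4b, named after its values were seen, rose from 15.8 ± 1.23 to 24.8 FPKM (0.60, limma adjusted p = 0.0034). Scarb2 fell from 30.7 to 17.6 FPKM (−0.78), whereas Npc1 rose from 8.81 to 15.8 FPKM (0.78) and Tmem192 from 12.1 to 19.1 FPKM (0.64). Cd63, the most abundant of these, was at 345 and 298 FPKM (−0.22, limma adjusted p = 0.084).

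Markers of other cells that such cultures could hold were read in the same libraries. Of 12 neutrophil markers 3 were listed and of 13 lymphocyte markers 1, none of which reached the filter, with summed levels in MEFs of 0 to 0.337 FPKM and of 0 FPKM. No gene of the further lysozyme family list was listed, and these genes were not analysed here. Of erythroid and platelet markers, Ppbp, a chemokine of platelets (4.59 ± 3.55 FPKM in MEFs, SD, n = 3; −2.30), and Gp1bb (1.47 ± 0.212; −1.16), both tested through the MEFs alone, fell. Of 9 mast cell markers only 3 were listed, and these rose in ciXEN cells, beside 42.4% of all genes tested. They were Kit (0.197 FPKM in MEFs, 89.3 FPKM in ciXEN cells), Gata2 (1.38) and Hdc (1.34). Kit and Hdc, the latter listed at 0 in every MEF library, passed the filter only through ciXEN cells and so had to be higher. Gata2 was at 24.9, 33.7 and 13.6 FPKM at passage 5, but at 2.22, 0.944 and 3.88 FPKM at passage 30, which overlapped the MEFs at 2.27, 3.22 and 1.62 FPKM, and it fell between the passages (−2.91, limma adjusted p = 0.0039). Of 10 endothelial markers 7 were listed and 5 tested, and 4 rose, Esam, Cdh5, Egfl7 and Tek, by 1.63 to 2.48. Esam and Cdh5 passed the filter only through ciXEN cells and so had to be higher. Cdh5, Egfl7 and Tek also rose from passage 5 to passage 30, by 1.14, 1.31 and 1.01. Kdr, Emcn and Vwf were named after their values were seen. Kdr did not pass against MEFs (0.28, limma adjusted p = 0.14) and fell between the passages (−1.12, adjusted p = 0.0083). Below the filter, Emcn averaged 0.509 FPKM in MEFs and was listed at 0 in ciXEN cells, and Vwf went from 0.0283 to 0.547 FPKM. Of 9 osteoclast markers 3 were tested. The protease Ctsk, tested through the MEFs alone, fell (10.8 FPKM in MEFs, −3.52), and Acp5 (2.82) and Nfatc1 (2.65) rose. Their part in the levels of the 10 macrophage genes was not tested.

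**Figure D4:**
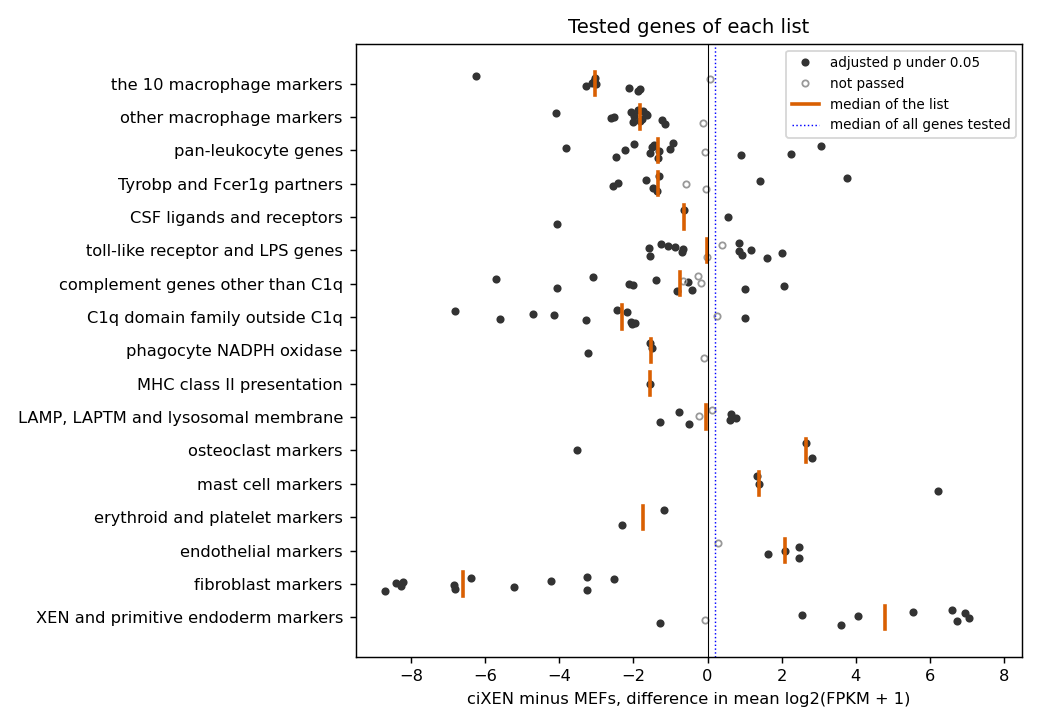
Difference between ciXEN cells and MEFs in mean log2(FPKM + 1) for the tested genes of each list; each point is 1 gene, filled where limma's adjusted p was under 0.05, and the orange bar is the median of the list. The 10 macrophage markers have a median of −3.03 and the second macrophage list −1.82, the fibroblast markers lie lower still, and the median of all genes tested is 0.20.

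The fibroblast markers, which carry the identity of the cultures, fell further than the macrophage markers on this scale, with a median of −6.60, and 5 of the 12 passed the filter only through the MEFs. Col1a1 (1167 FPKM in MEFs, 1.78 FPKM in ciXEN cells), Postn (524 and 0.554 FPKM), Col3a1 (477 and 0.544 FPKM) and Col1a2 (886 and 1.98 FPKM) changed most. Set against the MEF mean, the ciXEN mean had a median of 0.133% over the 12 fibroblast markers and of 0.176% over the 10 macrophage markers, so on the linear scale the medians of both lists were close. For the extraembryonic endoderm genes Sox17, Lama1, Gata4 and Sox7 the differences were 7.07, 6.95, 6.74 and 6.60, and Sparc, a matrix protein of fibroblasts as well, fell (−1.27).

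The genes whose pattern over the 9 libraries was most like the mean of the 10 were sought among 11011 other tested genes with a MEF mean of at least 1 FPKM. The 10 with the highest Pearson correlation, 0.998 to 0.999, were Plekha4, Synpo, Avpr1a, Ifi204, Adam8, Hspb7, Cpa4, Itgbl1, Ch25h and Plek. Ifi204, an interferon-inducible gene, was the most abundant of them, at 34.0, 20.1 and 21.1 FPKM in MEF libraries 1, 2 and 3 and listed at 0 in all 6 ciXEN libraries. Synpo, an actin-associated protein, was at 26.5, 14.5 and 18.7 FPKM in MEFs and at most 0.464 FPKM in ciXEN cells. Ch25h, an enzyme that makes a hydroxylated cholesterol, was at 10.8, 7.69 and 7.85 FPKM and at most 0.0762 FPKM.

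Each of these shares with the macrophage genes a high value in MEF library 1 and values near 0 in ciXEN cells. In all, 219 genes had a correlation above 0.99. The 9 points fall into 2 clusters, MEFs and ciXEN cells, and a correlation over them follows mainly the difference between the groups. Among the members themselves the correlation with their mean ran from 0.980 for Cd68 to 0.998 for C1qc, and was −0.0012 for Cd14.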

How the data were processed

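RNA from 3 MEF and 6 ciXEN cultures was sequenced after removal of ribosomal RNA with a kit that keeps the strand. The authors deposited FPKM per Ensembl transcript, without read counts, so no count test was run. The submitters' processing notes name cutadapt, HISAT2 2.0.5, StringTie, STAR 2.5.2b and, for these mouse libraries, the human build hg19; their roles are not given in the sources used here. Of 29599 transcripts, 29521 matched GENCODE M21 on GRCm38, and FPKM were summed per gene.

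The log2(FPKM + 1) values computed from the deposited table, without rescaling, were compared for 12443 genes that averaged 0.5 FPKM or more, in 1 limma 3.58.1 fit (R 4.3.3) of all 9 libraries with an intensity trend. The fit took each ciXEN library as separate and did not use the line, although each line was sequenced at both passages. Tests were two-sided, p-values were adjusted by Benjamini-Hochberg over those genes, and rose or fell is written of adjusted p under 0.05. Adding 1 understates the change of low genes. The steps were tested on simulated data. The share of equal values in a pair of libraries was at most 0.00831%. Sums and sequences were handled in Python 3.11.15 with pandas 2.3.3.

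The members and gene lists were chosen with earlier results of these data known. Named are all members and, in each list, up to 4 called genes with the largest change, up to 2 that go the opposite way and the gene highest in MEFs, besides the 10 most similar genes; others are said to be chosen after their values were seen. A gene that this rule names in 1 list is not reported here. Libraries of passages 5 and 30 pair by line, as their labels say; after removal of group means the pairs correlated at −0.0054, 0.014 and 0.071. The MEF libraries have no line and so no pairing. The comparisons were repeated after adding 0.1 or 0.5 in place of 1, without the filter, with the filter at 1 FPKM, with equal sums, equal medians, quantile normalisation, no trend, the replicate number as a block, the highest transcript only or only the groups compared, and without each library in turn.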

Additional observations from a re-analysis of the deposited data

Results flagged for a closer look

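Cd14 differed between the passages: its difference from MEFs was lower at passage 30 than at passage 5 by −1.02 on the log2(FPKM + 1) scale (limma adjusted p = 0.034, lower in 3 of 3 lines), with 0.59 at passage 5 and −0.43 at passage 30. With the line as a block the adjusted p was 0.17.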

How the results depend on the processing

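The count of 9 members lower than in MEFs held under every alternative for both passages together and for passage 30, except that a mean of at least 1 FPKM left out Csf1r and gave 8. Of the 10 members, 8 passed the filter on low values only through the MEFs and so had to be lower. The alternatives could therefore not test their direction. At passage 5 the count ranged from 8 to 10. The tenth was Cd14, called higher in the fit of 9 libraries with the replicate number as a block (0.59, limma adjusted p = 0.041), without MEF replicate 1 (0.73, adjusted p = 0.045) and without passage 5 replicate 2 (0.85, adjusted p = 0.0063). Over both passages the difference of Cd14 from MEFs ranged from −0.089 (without MEF replicate 2) to 0.21 (without MEF replicate 1) as each library was left out, and was −0.0078 without passage 5 replicate 1. Between the passages the count of 1 became 0 with quantile normalisation, with the highest transcript only, with only the groups compared and with the line as a replicate block in the 6 ciXEN libraries, and leaving out 1 replicate gave 0 to 1; in each of these limma fits 1 member was under an unadjusted p of 0.05. The difference of Cd14 was then −0.85 (adjusted p = 0.068), −1.02 (0.057), −1.02 (0.087) and −1.02 (0.17). It lay between −1.41 and −0.85 over 21 alternatives, with adjusted p of 0.016 to 0.17. The call was lost without MEF replicate 3, passage 5 replicate 1 or 3, or any of the 3 passage 30 replicates. The block changed no other call. Of 650 values of single genes under alternatives, 635 kept their direction and their side of the threshold. The causes were not tested. No depth is given in the sources used here, so values near 0 carry no interval; the lowest 1% of values above 0 for transcripts of 1000 to 1300 bases ended at 0.0147 to 0.0388 FPKM.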
